A study of Mus musculus with 2 samples.

Results

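Taste cells carry genes for nerve guidance and neurotrophin cues, and 8 of them, Bdnf, Sema3a, Sema7a, Slit2, Ephb2, Ephb3, Efna1 and Efnb1, were followed here out of 21888 genes listed for either of 2 single-cell libraries. The members were a fixed list of names, looked up in both count tables. No measured value in the rule chose them, but the list was made with earlier results of these data known. All 8 were listed in the fungiform (FP) table and 7 in the circumvallate (CV) table, where Efna1 had no row and was taken as 0. Both libraries came from adult α-gustducin-GFP mice on a C57BL/6J background, in which cells that make α-gustducin, a taste G protein subunit and the product of Gnat3, are marked by green fluorescent protein. The FP library held sorted fluorescent cells of the papillae scattered over the front of the tongue, and the CV library held sorted fluorescent cells of the single papilla at its back. Nothing in the labels gave a treatment, an age beyond adult or a number of animals, and there was 1 library for each papilla. The marked cells are type II taste cells, so cells of the bud that lack α-gustducin were not sought. Both tables still held barcodes below the Gnat3 limit given next, 8 in FP and 24 in CV with more than 500 genes. Cells were kept with more than 500 genes and with ln(1 + 10000 × Gnat3/total counts) above 0.9, which left 21 of 29 FP barcodes and 32 of 61 CV barcodes.

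Type II taste cells detect sweet, umami or bitter compounds and are renewed throughout life, so the fibres of the gustatory ganglia have to find new partners again and again. Brain-derived neurotrophic factor, encoded by Bdnf, acts through the receptor TrkB and is needed in mice for gustatory nerves to reach and stay in taste buds. Semaphorins, slits and ephrins steer axons by attraction or repulsion: secreted Sema3A signals through neuropilin-1 and class A plexins, membrane-anchored Sema7A through plexin C1 and β1 integrin, Slit2 through Robo receptors, and ephrins through Eph receptors, with signals passing both ways. In mice, Sema3A has been tied to the wiring of bitter taste cells and Sema7A to that of sweet taste cells. The question put to the data was how much of each cue the cells of either papilla held, and whether the cells that held it were those with bitter receptors (the Tas2r family, 34 genes in the tables) or with Tas1r3, a subunit of both the sweet and the umami receptor.

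Kept FP cells held 22646953 counts in all, with 193718 to 3190340 counts per cell, and kept CV cells 29535917 counts, with 32726 to 3447628 counts per cell. No kept FP cell and 7 kept CV cells had under 100000 counts. No barcode was shared between the libraries. Within the CV library, 6 barcodes had numbers within 10 of another, of which 5 were kept. The CV counts of cells with a cue on, and their splits by Tas2r and Tas1r3, were also made without these 5. The summed CPM (counts of a gene over all counts of the cell, scaled to 1000000) of the type II markers had a median of 21180 in FP cells and 18257 in CV cells. Lingual keratinocyte markers stood at 90.9 to 527 CPM in FP cells, with 5 of 12 at 10 CPM or more over the pooled cells and only Sprr3 at 0. In CV cells they stood at 0 to 917 CPM, with a median of 0.680 CPM and 0 of 12 at 10 CPM over the pooled cells, with Krt76, Krt16, Krt6b, Krtdap and Sprr3 at 0. The medians of the summed markers of type III and type I taste cells, Schwann cells and nerve, immune cells, and endothelial cells and fibroblasts were at or below 7.01 CPM in both libraries. Those of basal and progenitor cells had medians of 20.9 CPM in FP against 1.73 CPM in CV.

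The sequences upstream of the 4 cues whose pooled levels lay at least 2-fold apart between the papillae are shown, 2 higher in FP and then 2 higher in CV. Of the latter, Sema3a was not higher in CV by its mean over cells. Each is the 200 bases from 250 to 51 bases before the RefSeq start of the gene on GRCm38.p6, on the plus strand. Capitals mark the E-box CAGCTG, which reads the same on both strands.
Sema7a, chr9:57939862-57940061: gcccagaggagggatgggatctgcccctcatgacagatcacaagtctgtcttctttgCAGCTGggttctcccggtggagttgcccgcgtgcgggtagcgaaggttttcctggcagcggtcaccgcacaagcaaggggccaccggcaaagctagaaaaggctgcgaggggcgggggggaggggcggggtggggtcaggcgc
Ephb3, chr16:21204545-21204744: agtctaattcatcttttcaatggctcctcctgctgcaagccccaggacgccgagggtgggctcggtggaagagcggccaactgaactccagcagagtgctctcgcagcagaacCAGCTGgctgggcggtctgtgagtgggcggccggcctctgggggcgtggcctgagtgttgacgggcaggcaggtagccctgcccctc
Sema3a, chr5:13396534-13396733: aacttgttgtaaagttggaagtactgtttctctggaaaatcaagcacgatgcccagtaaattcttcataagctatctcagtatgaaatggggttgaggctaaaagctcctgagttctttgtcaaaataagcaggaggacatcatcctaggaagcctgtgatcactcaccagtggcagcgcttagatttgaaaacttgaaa
Slit2, chr5:47982905-47983104: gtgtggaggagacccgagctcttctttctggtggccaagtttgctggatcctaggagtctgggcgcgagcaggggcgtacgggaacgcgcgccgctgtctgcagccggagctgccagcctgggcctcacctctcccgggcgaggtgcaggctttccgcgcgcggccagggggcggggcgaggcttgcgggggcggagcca
The E-box lay in the windows of Sema7a and Ephb3, with its first base 193 and 137 bases before the start, and in neither the Sema3a nor the Slit2 window. It was in 10.3% of 32851 promoter windows of the same length. It was also in 1 of the 7 Bdnf windows, and in no window of Ephb2, Efna1 or Efnb1. The octamer ATGCAAAT, sought on both strands because Pou2f3, the POU factor of type II cells, belongs to the octamer-binding family, was in none of the members' windows and in 1.32% of all. The Slit2 window was 71.5% G and C with 20 CpG, and the Sema3a window 41.0% with 2 CpG, against medians of 51.5% and 4 CpG over all windows. The RefSeq start of Sema3a lies inside the wider span that GENCODE gives the gene on mm10, chr5:13125414-13602565. Whether these sequences play a part in the cue levels was not tested.

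Of the 8 cues Bdnf was on in the most cells of both papillae, Sema7a and Ephb3 stood higher in FP, and Slit2 stood higher in CV. Pooled Sema3a also stood higher in CV, but not its mean over cells. Ephb2, Efnb1 and Efna1 were on in at most 4 cells of either papilla, and Ephb3 was in CV at 3 counts in all. With pooled CPM and 10 CPM added to each side, 2 of the 8 cues were higher in FP by 2-fold or more and 2 were so in CV. Among the 10918 genes at 10 CPM or more in either library, 38.0% were at least 2-fold apart either way, 17.0% higher in FP and 21.0% higher in CV, so a cue that differed was no rarity among genes. The median log2 ratio of those genes, FP over CV, was -0.05. With 1 library per papilla there was no replicate check and no test, and every interval below is a 95% interval for counting error only, too narrow where PCR copies were counted.

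**Figure D1:**
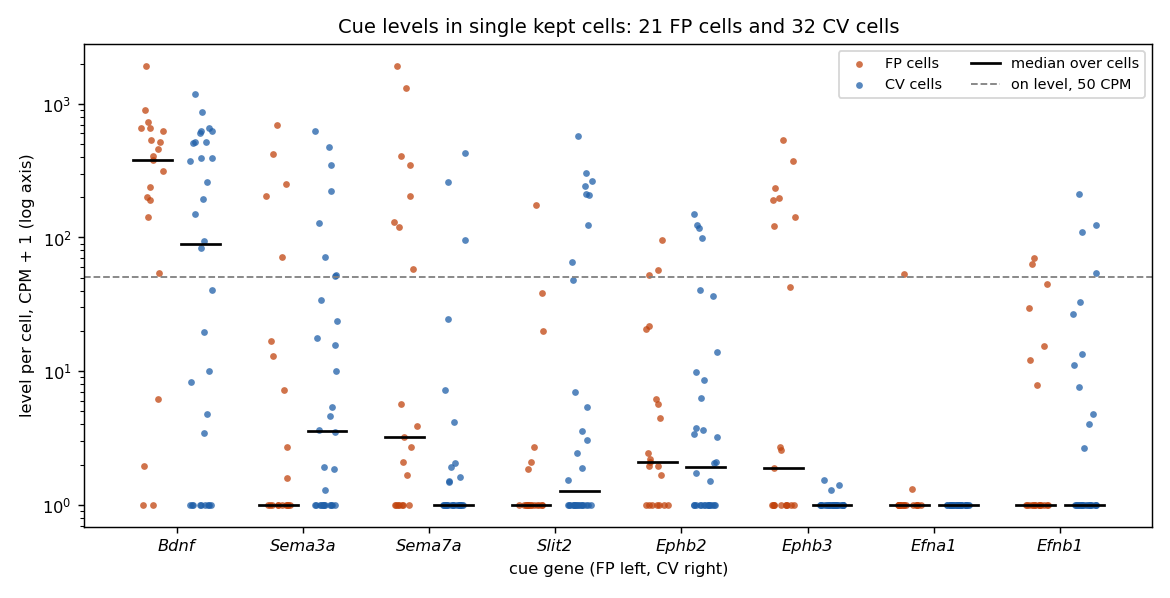
Level of each cue in every kept cell (CPM + 1, log axis), FP cells left and CV cells right, with bars at the median over cells and a dashed line at 50 CPM, the level at which a cell was called on. Bdnf was on in 17 FP and 17 CV cells, while Ephb3 reached 532 CPM in FP and stayed below 1 CPM in every CV cell.

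Bdnf, at chr2:109674700-109727007 on the plus strand, is the neurotrophin of the list. Per cell it had 0 CPM at the lowest, 377 at the median and 1919 at the highest in FP, against 0, 87.8 and 1193 CPM in CV. A gene at 50 CPM or more in a cell was called on there, and Bdnf was on in 17 of 21 FP cells (81.0%, with a Clopper-Pearson interval of 58.1 to 94.6%) and in 17 of 32 CV cells (53.1%, 34.7 to 70.9%). Without the adjoining barcodes it was on in 15 of 27 CV cells. The cells of both papillae overlapped up to the highest CV cell, and 1 FP cell lay above it. Pooled Bdnf came to 367 CPM in FP (360 to 375) and 449 CPM in CV (441 to 457), a ratio of 0.819 (0.796 to 0.841). The mean over cells ran the other way, with 425 CPM in FP against 254 CPM in CV, so no direction is given. Depth moved with these calls. The CV cells with Bdnf on had a median of 1659573 counts, against 167199 counts in those with it off. Among cells of at least 1000000 counts, 11 of 13 in FP and 13 of 14 in CV had Bdnf on. The highest FP value, 1919 CPM, came from a cell of 211586 counts with 68.0% mitochondrial counts.

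Sema3a, at chr5:13125414-13602565 on the plus strand, is the secreted semaphorin of the list. It was on in 5 of 21 FP cells (23.8%, 8.22 to 47.2%), at 692, 421, 250.04, 202 and 70.0 CPM. In CV it was on in 8 of 32 cells (25%, 11.5 to 43.4%), at 619.8, 472, 345, 222, 127, 71.0, 51.01 and 50.5 CPM. The levels of the on cells overlapped, and most cells of both papillae had little or none, with medians of 0 CPM in FP against 2.57 CPM in CV. The CV cells at 127 and 71.0 CPM held 8 and 7 counts and belonged to the adjoining barcodes, without which 6 of 27 CV cells had the gene on. Pooled Sema3a came to 39.2 CPM in FP (36.6 to 41.8) and 133 CPM in CV (129 to 137), a ratio of CV over FP of 3.39 (3.15 to 3.65) and a log2 ratio of FP over CV of -1.54. By the mean over cells it was 79.6 CPM in FP against 64.7 CPM in CV, a log2 ratio of 0.26. The cell at 692 CPM, the shallowest FP cell, held 134 of the 887 Sema3a counts of that library, and the CV cell at 619.8 CPM, of 2229638 counts, held 1382 of 3925.

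Sema7a, at chr9:57940112-57962865 on the plus strand, encodes a semaphorin held to the membrane by a lipid anchor. It was on in 8 of 21 FP cells (38.1%, 18.1 to 61.6%), at 1910, 1311, 408, 347, 204, 129.7, 119 and 57.5 CPM. In CV it was on in 3 of 32 cells (9.38%, 1.98 to 25.02%), at 430.3, 261 and 95.4 CPM. The highest FP cells lay above every CV cell, while the lower FP carriers lay among the CV carriers and the medians were 2.19 CPM in FP and 0 in CV. Pooled Sema7a came to 245 CPM in FP (238 to 251) and 42.9 CPM in CV (40.5 to 45.3), a ratio of 5.71 (5.37 to 6.07) and a log2 ratio of 2.27. The FP cells at 1910 and 1311 CPM held 2180 and 1721 of the 5543 FP counts, and leaving out both was not tried. Without the highest cell of each library the log2 ratio was 2.25. When the Gnat3 limit was dropped the log2 ratio came to 0.52. Of the barcodes that then entered, the 8 of FP held 8 Sema7a counts together and 1 of CV held 2741.

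Slit2, at chr5:47983138-48307733 on the plus strand, encodes a secreted ligand of Robo receptors that repels many axons. In FP, 1 of 21 cells had it on (4.76%, 0.120 to 23.8%), at 175 CPM, and that cell held 85.3% of the library's Slit2 counts. In CV 8 of 32 cells had it on (25%, 11.5 to 43.4%), at 575, 300.1, 262, 240.2, 212, 208, 124 and 64.4 CPM. The single FP carrier fell inside the range of the CV carriers. Pooled Slit2 came to 15.3 CPM in FP (13.7 to 17.0) and 115 CPM in CV (111 to 119), a ratio of CV over FP of 7.54 (6.75 to 8.45) and a log2 ratio of FP over CV of -2.31. Slit2 was lower in FP under each of 10 other settings, from -2.84 to -1.81 on the log2 scale.

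Ephb3, at chr16:21204755-21223305 on the plus strand, encodes a receptor tyrosine kinase for B-type ephrins. Of the 21 FP cells 7 had it on (33.3%, 14.6 to 57.0%), at 532, 372, 234, 195, 191, 140.1 and 121 CPM. No CV cell of 32 had it on, with a Clopper-Pearson upper limit of 10.9%, and the CV cells together held 3 counts. Every FP carrier lay above every CV cell, and 10 FP cells without a count were level with CV. Pooled Ephb3 came to 111 CPM in FP (106 to 115) and 0.102 CPM in CV (0.0209 to 0.297), a ratio of 1089 with an interval of 372 to 5282. On the log2 scale with 10 CPM added the ratio was 3.58, and 3.21 to 6.66 under 10 other settings. FP was higher in each. Keratinocyte markers were higher in FP as well, and the 8 FP barcodes left out by the Gnat3 limit, 5 of them with Krt13 on, held 50.5 CPM Ephb3 when pooled. None of the 5 with Krt13 on had Ephb3 on. The part of keratinocyte RNA in the FP level was not tested further.

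Ephb2, at chr4:136647539-136835988 on the minus strand, encodes a sister receptor of Ephb3. Of the 21 FP cells 3 had it on (14.3%, 3.05 to 36.3%), at 94.97, 56.4 and 50.99 CPM. The CV cells with it on were 4 of 32 (12.5%, 3.51 to 28.99%), at 149, 124, 116 and 98.2 CPM. All 4 CV carriers lay above the 3 FP carriers, and medians were 1.09 CPM in FP against 0.907 CPM in CV. Pooled Ephb2 came to 21.9 CPM in FP (20.02 to 23.9) and 31.9 CPM in CV (29.9 to 34.0), a log2 ratio of FP over CV of -0.39, inside 2-fold. With cells thinned to equal totals it was -1.02, past 2-fold.

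Efnb1, at chrX:99136130-99148991 on the plus strand, encodes a membrane ephrin that binds EphB receptors. It was on in 2 of 21 FP cells (9.52%, 1.17 to 30.4%), at 68.7 and 62.8 CPM, and in 4 of 32 CV cells (12.5%, 3.51 to 28.99%), at 212, 123, 109 and 53.6 CPM. The carriers of both papillae overlapped. Pooled Efnb1 came to 16.4 CPM in FP (14.8 to 18.1) and 34.3 CPM in CV (32.3 to 36.5), a ratio of CV over FP of 2.096 (1.86 to 2.37), while the log2 ratio of FP over CV with 10 CPM added was -0.75. It passed 2-fold with cells thinned to equal totals, at -1.15, and with 1 CPM added, at -1.02. Efna1, at chr3:89271733-89281142 on the minus strand, encodes an ephrin with a lipid anchor that binds EphA receptors. A single FP cell had it on, at 52.0 CPM, which held 64 of the 65 counts of that library, and it was on in 0 of 32 CV cells, with 0 counts. With the pooled CV cells set to a floor of 3 counts, the FP level was 28.3-fold higher, on the counts of that 1 cell. The exact interval of the ratio began at 22.3. The log2 ratio of FP over CV with 10 CPM added was 0.36, inside 2-fold.

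Cells were then classed by receptor. At least 1 Tas2r was on in 13 FP cells of the 21 and 28 CV cells of the 32, and Tas1r3 was on in 8 FP and 7 CV cells. Both were on in 4 FP and 7 CV cells, Tas1r3 without a Tas2r in 4 FP and 0 CV cells, and neither in 4 FP and 4 CV cells. The 4 CV cells with neither had a median of 145832 counts, against 893560 counts in CV cells with a Tas2r on, and none of the 8 cues was on in them. Comparisons by Tas2r within CV therefore set deeper against shallower cells, and the part of depth in them was not tested. Shares were compared within each papilla for 8 cues and 4 receptors (Tas2r, Tas1r3, Tas1r1 and Tas1r2), 64 differences in all, with unadjusted Newcombe intervals. Of these intervals 3 left out 0, all in CV: Bdnf by Tas2r, Ephb2 by Tas1r3 and Ephb2 by Tas1r2. Without the adjoining barcodes 23 CV cells had a Tas2r on and 6 had Tas1r3 on, of 27, and the numbers of cells with Sema7a, Slit2, Ephb2 and Efnb1 on stayed at 3, 8, 4 and 4.

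**Figure D2:**
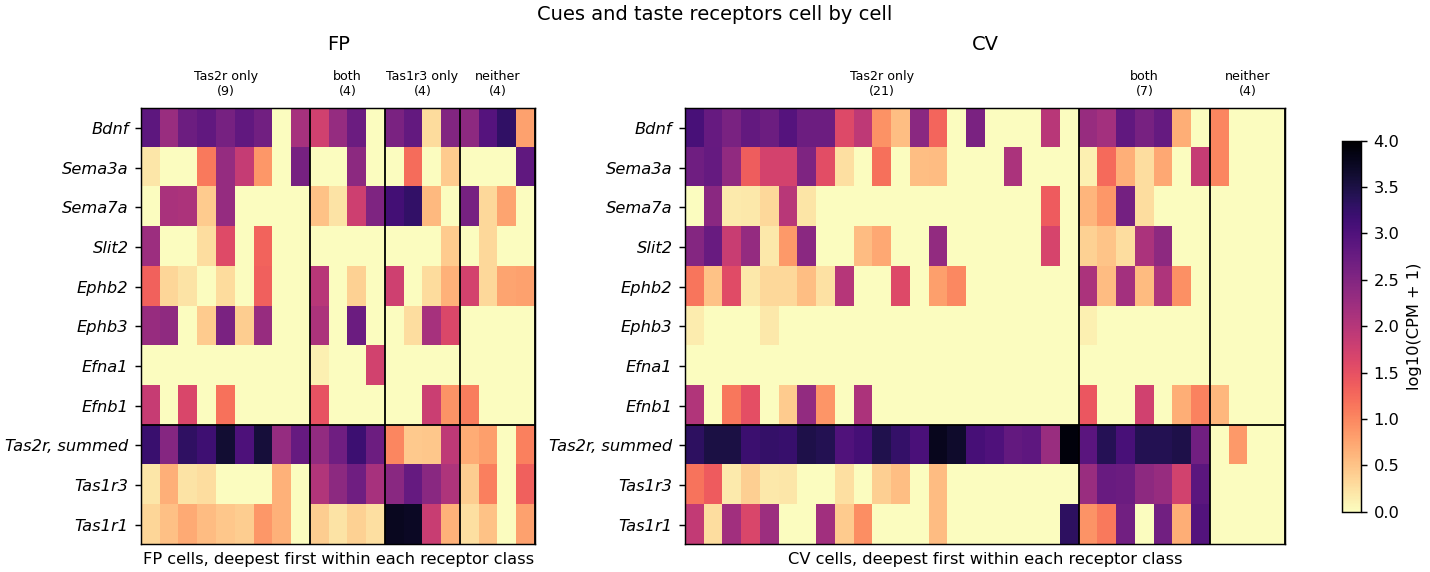
Level of each cue (rows above the line) and of the summed Tas2r genes, Tas1r3 and Tas1r1 (rows below it) in every kept cell, as log10(CPM + 1) by colour, FP left and CV right, with cells grouped by receptor class and ordered by total counts within each. The 2 FP cells darkest in Sema7a, at 1910 and 1311 CPM, are the 2 darkest in Tas1r1, and the 4 CV cells with neither receptor are empty of cues at 50 CPM.

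Of the 13 cells with Sema3a on, 12 also had a bitter receptor on, where 41 of the 53 kept cells did. In FP it was on in 4 of 13 cells with a Tas2r on and 1 of 8 without, a difference of 18.3 percentage points (-20.8 to 47.0). In CV it was on in 8 of 28 with a Tas2r on and 0 of 4 without, a difference of 28.6 points (-22.2 to 47.1), and in 6 of 23 and 0 of 4 without the adjoining barcodes. Both intervals held 0. The FP exception was the cell at 692 CPM, with no Tas2r and no Tas1r3 on. Over all genes on in at least 4 cells, the median difference by Tas2r was 8.65 points among 4562 FP genes and 21.4 points among 5287 CV genes. By Tas1r3 the order was the opposite: Sema3a was on in 1 of 8 FP cells with Tas1r3 on and 4 of 13 without, and in 1 of 7 CV cells with it and 7 of 25 without, or 0 of 6 and 6 of 21 without the adjoining barcodes. The CV cells with Sema3a on had 2 to 16 Tas2r genes on (7 to 16 without the adjoining barcodes), with a median of 11, against a median of 4 in those with it off. Spearman's rho across cells between Sema3a and the summed Tas2r level was 0.38 over 21 FP cells and 0.27 over 32 CV cells. It was 0.71 over the 14 CV cells of at least 1000000 counts, where rho between Sema3a and total counts was 0.46. These cells share 1 library and differ in depth.

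The pattern of Sema7a over cells with Tas1r1 on was uneven, and not all of these CV cells had Tas1r3 on. The FP cells at 1910 and 1311 CPM Sema7a were those with the highest Tas1r1, the umami receptor subunit, at 5415 and 5800 CPM, and they had Tas1r3 at 625 and 270 CPM and no Tas2r on. The CV cell highest in Sema7a, at 430.3 CPM, had Tas1r1 at 461 CPM and Tas1r3 at 535 CPM, together with 4 Tas2r genes on. Other cells with Tas1r1 on had little Sema7a: the third FP cell, with Tas1r1 at 65.7 CPM, had 2.90 CPM. The CV cells with Tas1r1 at 2078, 902 and 467 CPM had none. They held 32726, 98657 and 686924 counts, while the CV cells with Sema7a on held at least 1115456. The first had Tas1r3 at 0 CPM, and the second was an adjoining barcode. The part of depth was not tested. By Tas1r1, Sema7a was on in 2 of 3 FP cells with it on and 6 of 18 without, a difference of 33.3 points (-18.0 to 65.4). In CV it was on in 1 of 8 cells with Tas1r1 on and 2 of 24 without, a difference of 4.17 points (-16.1 to 39.3). Sema7a was on in 4 of 8 FP cells with Tas1r3 on and 4 of 13 without, a difference of 19.2 points (-19.9 to 53.0), and in 1 of 7 CV cells with it and 2 of 25 without, a difference of 6.29 points (-14.3 to 43.8). Both intervals held 0. The mean level was 454 CPM in FP cells with Tas1r3 on and 66.8 CPM in those without, and that gap rests on the 2 highest cells. By Tas2r, Sema7a was on in 5 of 13 FP cells with a Tas2r on and 3 of 8 without, so bitter receptor cells held it about as often, with an interval of -37.1 to 36.2 points. Tas1r2, the sweet receptor subunit, was on in 2 FP cells, of which 1 had Sema7a on, and in 4 CV cells, of which 0 had it on.

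**Figure D3:**
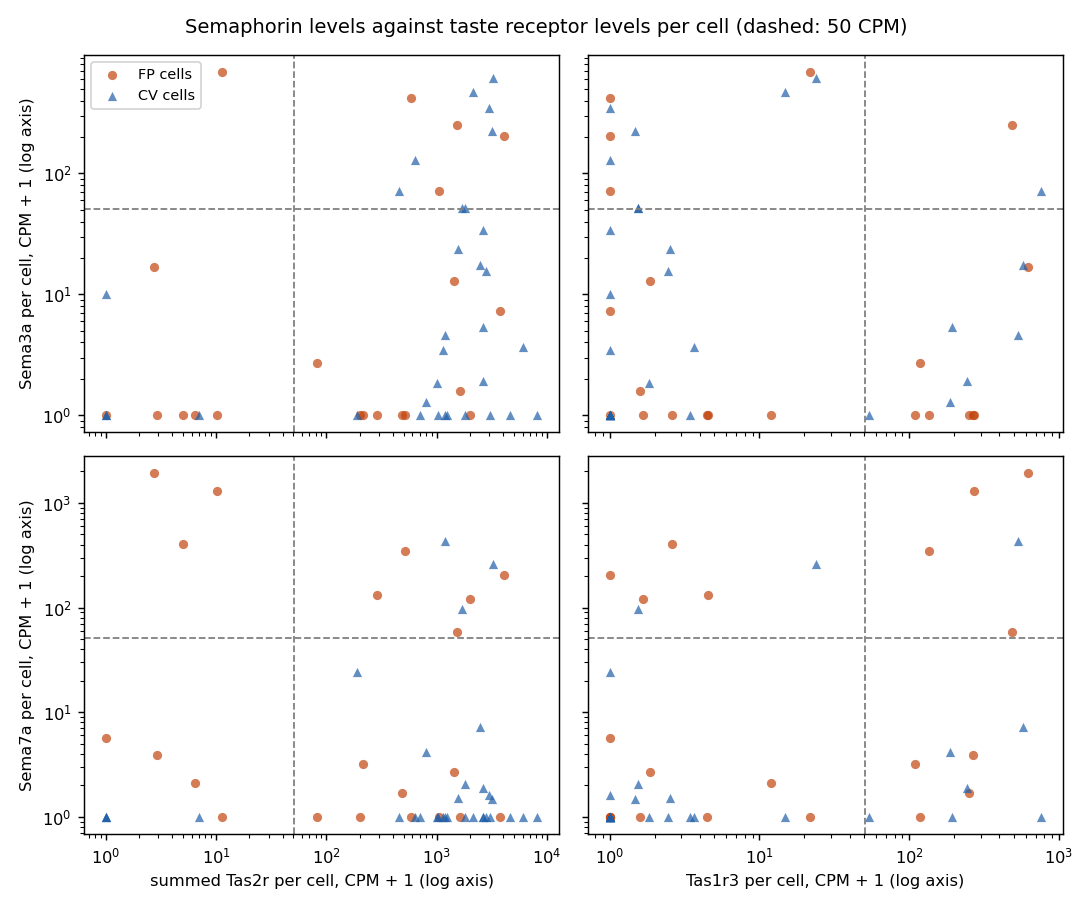
Sema3a (upper row) and Sema7a (lower row) per cell against the summed Tas2r level (left) and Tas1r3 (right), all as CPM + 1 on log axes, with FP cells as circles, CV cells as triangles and dashed lines at 50 CPM. All but 1 of the cells with Sema3a above the line lie right of the Tas2r line, and the highest Sema7a cells, at 1910 and 1311 CPM, lie right of the Tas1r3 line.

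Of the 7 FP cells with Ephb3 on, 6 had a bitter receptor on. It was on in 6 of 13 FP cells with a Tas2r on and 1 of 8 without, a difference of 33.7 points (-7.86 to 60.4). Of the 4562 FP genes, 19.0% were on at least 25 points more often with a Tas2r on and 5.72% at least 25 points less often. Ephb3 was the 1 cue of the 4 on in at least 4 FP cells (with Bdnf, Sema3a and Sema7a) that passed 25 points. By Tas1r3 it was on in 3 of 8 FP cells with and 4 of 13 without. No cue on in at least 4 FP cells differed by 25 points by Tas1r3, where 26.5% of genes were at least 25 points more and 4.19% at least 25 points less often on.

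Of the 4 CV cells with Ephb2 on, 3 had Tas1r3 on. In CV it was on in 3 of 7 cells with Tas1r3 on, at 149, 124 and 116 CPM, and in 1 of 25 without, at 98.2 CPM, a difference of 38.9 points (7.67 to 71.1). It was on in 3 of 6 and 1 of 21 without the adjoining barcodes. By Tas1r2 it was on in 2 of 4 CV cells with and 2 of 28 without, a difference of 42.9 points (4.58 to 78.2). No share over all genes was made for Tas1r2. By Tas1r3, 16.4% of the 5287 CV genes were on at least 25 points more often with Tas1r3 and 1.65% at least 25 points less often. CV cells with Tas1r3 on were also deeper, with a median of 1100195 counts against 401621 without. Spearman's correlation between Ephb2 and Tas1r3 was 0.64 over 32 CV cells and 0.55 over the 14 of at least 1000000 counts. In FP it was on in 2 of 8 cells with Tas1r3 on and 1 of 13 without, a difference of 17.3 points (-13.9 to 52.0).

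In CV, Slit2, like several other cues, was on in cells with many bitter receptors. The share was 8 of 28 CV cells with a Tas2r on and 0 of 4 without, a difference of 28.6 points (-22.2 to 47.1), and 8 of 23 and 0 of 4 without the adjoining barcodes. Its 8 carriers had 8 to 16 Tas2r genes on, with a median of 11, against a median of 3.5 in the other CV cells. Carriers of the other cues on in CV had medians of 11 (Sema3a), 11 (Efnb1), 8 (Bdnf), 7 (Sema7a) and 5.5 (Ephb2). Slit2 carriers were also deeper, with a median of 1800800 counts against 297739 counts in the other CV cells. The part of depth was not tested. Spearman's correlation between Slit2 and the number of Tas2r genes on was 0.73 over 32 CV cells and 0.51 over the 14 of at least 1000000 counts, and rho between Slit2 and total counts was 0.63 over the 32. By Tas1r3 it was on in 2 of 7 CV cells with and 6 of 25 without. The lone FP carrier had 4 Tas2r genes on and Tas1r3 off.

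Bdnf did not separate the receptor classes of FP, where it was on in 11 of 13 cells with a Tas2r on and 6 of 8 without (-22.6 to 45.4 points), and in 6 of 8 with Tas1r3 on and 11 of 13 without. In CV it was on in 17 of 28 cells with a Tas2r on and 0 of 4 without, a difference of 60.7 points (8.42 to 76.4), and in 5 of 7 with Tas1r3 on and 12 of 25 without. Without the adjoining barcodes it was on in 15 of 23 and 0 of 4 by Tas2r, and in 5 of 6 and 10 of 21 by Tas1r3. Its rho with total counts was 0.77 over the 32 CV cells. Of the 5287 CV genes, 42.8% were on at least 25 points more often with a Tas2r on and 0.416% at least 25 points less often. Bdnf, Sema3a and Slit2 were past 25 points, 3 of the 5 cues on in at least 4 CV cells. Efnb1 was on in 1 of 13 FP cells with a Tas2r on and 1 of 8 without, and in 4 of 28 CV cells with and 0 of 4 without. The 1 FP cell with Efna1 on had both receptor kinds on.

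**Figure D4:**
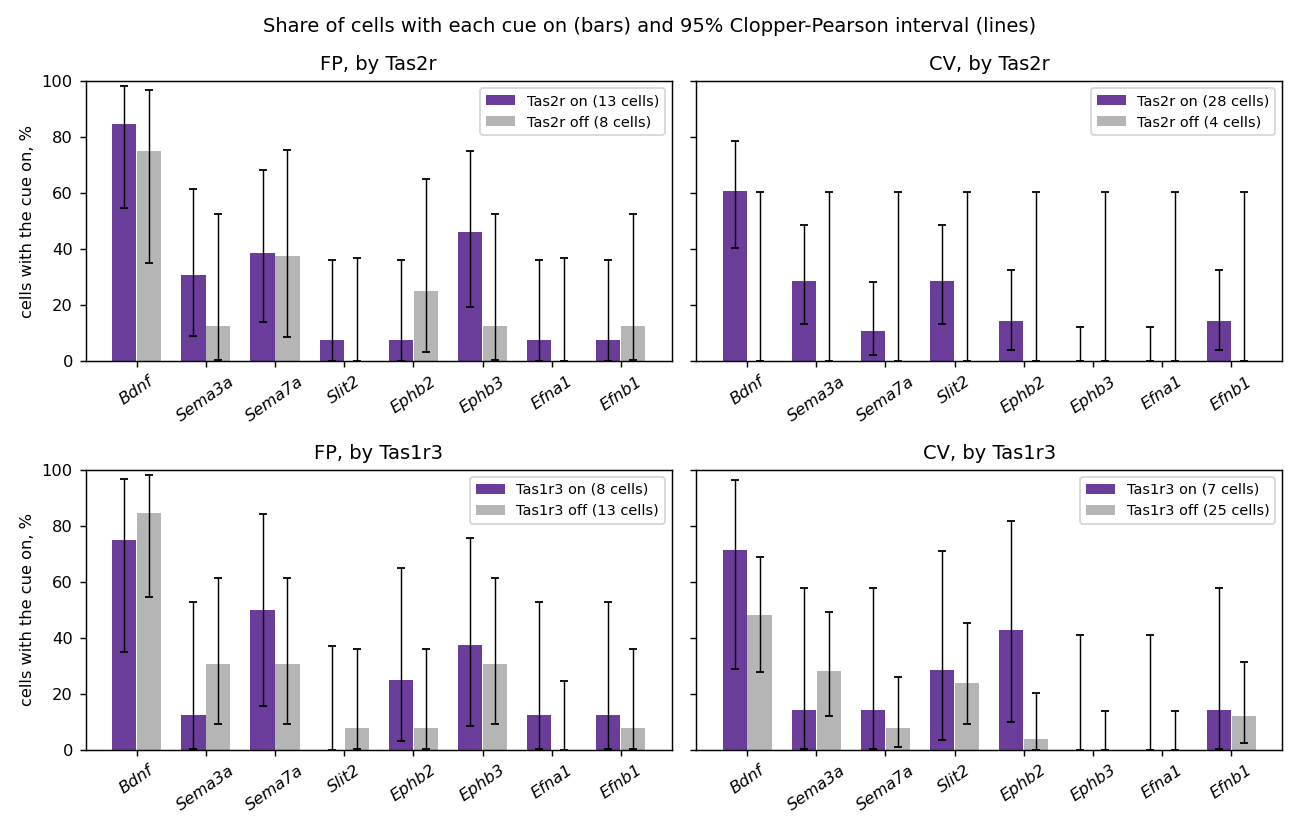
Percent of cells with each cue on among cells with the receptor on (dark bars) and off (grey bars), for Tas2r (upper row) and Tas1r3 (lower row) in FP (left) and CV (right), with exact 95% Clopper-Pearson intervals as lines. Ephb2 in CV stands at 42.9% with Tas1r3 on and 4% with it off, and the intervals of most other pairs of bars overlap widely.

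Cues were combined within cells. At least 1 of the 8 cues was on in 20 of 21 FP and 21 of 32 CV cells, and 4 at once were on in 3 FP and 3 CV cells. The FP cells with 4 cues all had Bdnf and Ephb3 on together with a Tas2r, and the CV cells with 4 all had Bdnf, Sema3a and Slit2 on together with a Tas2r. The 11 CV cells with no cue on had a median of 167199 counts and of 33.5% mitochondrial counts, against 1191726 counts and 11.1% in those with a cue on. Without the adjoining barcodes, 17 of 27 CV cells had a cue on. Among pairs, Bdnf and Slit2 were on together in 7 CV cells, where independent shares would give 4.25. Sema3a and Slit2 were on together in 4, where they would give 2. In FP, Bdnf and Sema7a were on together in 7 cells, where they would give 6.48, and Ephb3 and Efnb1 in 2, where they would give 0.667. Both cells with Efnb1 on in FP had Ephb3 on, whereas no CV cell had Ephb2 and Efnb1 on together. All 4 CV cells with Efnb1 on and all 3 with Sema7a on had Bdnf on. These cells all had at least 1000000 counts, where Bdnf was on in 13 of 14 CV cells and Slit2 in 6. The pairs named were picked from all pairs of the 8 cues. Independent shares were taken over all kept cells, shallow ones too, and the part of depth in the pairs was not tested.

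The other genes of these pathways were taken from 4 lists that include the cues. Their levels are pooled CPM unless the mean over cells is named, and the 2 measures can differ. Of 13 genes of the neurotrophin list at 10 CPM or more, 6 lay at least 2-fold higher in FP and 2 did so in CV, and the median log2 ratio, FP over CV, was 0.88. Sort1, which encodes the proneurotrophin receptor sortilin, had 573 CPM in FP against 420.3 CPM in CV and was on in 16 FP and 18 CV cells. Cpe, whose product carboxypeptidase E takes part in the processing and sorting of secreted peptides, had 498 CPM in FP against 311 CPM in CV. Sorcs2, of the sortilin family, had 242 CPM in FP against 56.3 CPM in CV, and Ngfr, the p75 neurotrophin receptor, 109.6 CPM in FP against 40.2 CPM in CV. Ligands and receptors of the related GDNF family lay further apart: Artn, artemin, had 140.0 CPM in FP against 12.5 CPM in CV, while Gfra2, the neurturin receptor, had 0.839 CPM in FP against 171 CPM in CV, with 0 FP and 15 CV cells on. Ntrk2, the gene of TrkB, was looked up after its values were seen and had 57.2 CPM in FP against 18.2 CPM in CV, on in 6 FP and 3 CV cells.

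Of 18 genes of the semaphorin list, 4 lay at least 2-fold higher in FP and 7 did so in CV, with a median of -0.61. Itgb1, the β1 integrin that binds Sema7A, had 255 CPM in FP against 293 CPM in CV. Plxnb2 had 138 CPM in FP against 146 CPM in CV, and Plxnb1 99.4 CPM in FP against 92.3 CPM in CV, both inside 2-fold when pooled. By the mean over cells Plxnb2 had 140 CPM in FP against 66.7 CPM in CV, and Plxnb1 77.9 CPM in FP against 113 CPM in CV. The class A plexins, which take part in Sema3A signalling, split, with 3 of 4 higher in FP: Plxna1 had 91.9 CPM in FP against 6.53 CPM in CV, on in 9 FP and 1 CV cells, and Plxna2 had 0.486 CPM in FP against 79.6 CPM in CV, on in 0 FP and 8 CV cells. Plxna3 had 34.2 CPM in FP against 0.305 CPM in CV, and Plxna4, inside 2-fold when pooled, 64.2 CPM in FP against 39.0 CPM in CV. By the mean over cells Plxna4 had 65.7 CPM in FP against 32.5 CPM in CV. Plxna3 and Plxna4 were looked up after their values were seen. Sema5a, a transmembrane semaphorin, had 8.43 CPM in FP against 256 CPM in CV, on in 1 FP and 11 CV cells. The neuropilins were looked up after their values were seen: Nrp1 was not listed in FP and had 16.3 CPM in CV, 99.8% of it in 1 cell, and Nrp2 had 48.7 CPM in FP against 1.86 CPM in CV.

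Of 7 genes of the slit and netrin list, 1 lay at least 2-fold higher in FP and 2 did so in CV, with a median of -0.14. Robo2, a slit receptor, had 147 CPM in FP against 54.7 CPM in CV, the opposite order to Slit2. Unc5b, a netrin receptor, had 197 CPM in FP against 219 CPM in CV. Of 10 genes of the ephrin and Eph list, 1 was at least 2-fold higher in FP, which was Ephb3, and 2 in CV, with a median of -0.36. Ephb4 had 216 CPM in FP against 342 CPM in CV, and Epha7 437 CPM in FP against 256 CPM in CV. Epha4 (69.2 CPM in FP, 89.5 CPM in CV) and Ephb6 (86.5 CPM in FP, 79.6 CPM in CV) lay inside 2-fold when pooled. By the mean over cells Ephb6 had 61.2 CPM in FP against 403 CPM in CV, where the highest cell had 11550 CPM. Epha5 was without a count in the 21 kept FP cells and at 100.5 CPM in CV, where 14 cells had it on. With a floor of 3 pooled counts in FP it was 759-fold lower there, and the exact interval of CV over FP began at 617. Epha6 had 0.927 CPM in FP against 87.6 CPM in CV, on in 0 FP and 8 CV cells.

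**Figure D5:**
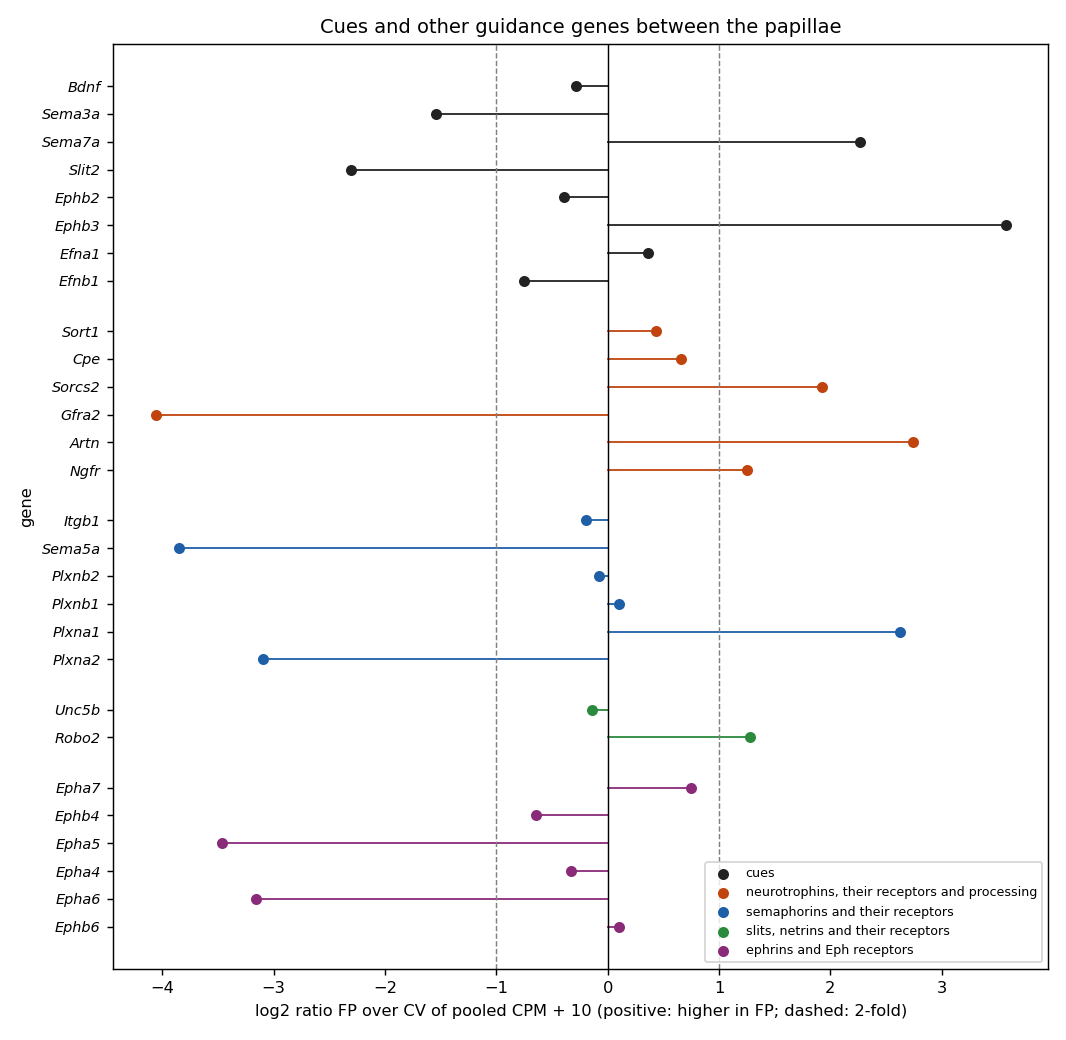
Log2 ratio of FP over CV of pooled CPM + 10 for the 8 cues (black) and for the genes of the 4 pathway lists named by level (colours), with dashed lines at 2-fold and positive values higher in FP. Ephb3 stands at 3.58 and Sema7a at 2.27 on the FP side, and Gfra2, Sema5a, Epha5, Epha6 and Plxna2 lie furthest on the CV side.

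For the 2 cues on in at least 4 cells of each library, Bdnf and Sema3a, the genes with the most similar pattern over cells were found by the mean of the FP and CV rhos. Over 1733 candidate genes, Bdnf was closest to Aldoa, the glycolytic aldolase, at 0.64 (0.56 over 21 FP cells and 0.71 over 32 CV cells), then Pdcd6ip at 0.62 and Mink1 at 0.61, where the median gene had 0.28. Over 1734 candidates, Sema3a was closest to Commd1 at 0.61 (0.59 in FP and 0.63 in CV), then Golga4 at 0.57 and Bzw2 at 0.53, where the median gene had 0.17. In CV, rho with total counts was 0.64 for Aldoa, 0.56 for Pdcd6ip and 0.79 for Mink1, and 0.82 for Commd1, 0.57 for Golga4 and 0.49 for Bzw2.

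Few CV barcodes outside the Gnat3 limit had a cue on. In FP, Efna1 was on in 2 of the 8 such barcodes, and Ephb3 and Efnb1 in 1 each. Sema3a, Slit2 and Ephb2 were on in 0 of 8 left-out FP barcodes and 0 of 24 left-out CV barcodes, and Bdnf in 0 of 8 and 1 of 24, at 65.3 CPM. At 1 count or more the picture was looser: Bdnf was in 3 of the 5 left-out FP barcodes with Krt13 on, of a median of 356319 counts, and in 19 of 21 kept FP cells, of a median of 1141644 counts. Shares at 1 count were not read as expression for that reason. The pooled left-out barcodes stood above the kept cells of their library for 3 cues that were on in any of them: Efna1 in FP, at 63.0 CPM against 2.87 CPM, on in 2 of 8 left-out barcodes; Efnb1 in FP, at 37.1 CPM against 16.4 CPM, on in 1 of 8; and Sema7a in CV, at 363 CPM against 42.9 CPM, on in 1 of 24.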

How the data were processed

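Fluorescent cells freed from the tongue epithelium were sorted, captured on BD Rhapsody beads and amplified by TAS-Seq, per the labels. For each library the authors deposited a table of counts, in whole numbers for each gene in each barcode and with no scaling. The submitters' processing notes name cutadapt (2.10), Bowtie2 (2.3.4.1), Seurat (2.3.4) and the build mm10. The sources used here do not say how molecular barcodes were collapsed, so counts may hold PCR copies. The cell filter in the design can be read in several ways, and the natural log of Gnat3 per 10000 counts was used. No doublet caller was run on this few cells, and no mitochondrial or ribosomal RNA limit was set. Efna1, missing from one table, was taken as 0 there, as was any such gene.

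Counts of kept cells were pooled as CPM with exact Poisson intervals, ratios had the exact conditional binomial interval, and log2 ratios had 10 CPM added to each side. Shares of cells carry Clopper-Pearson intervals and differences of shares Newcombe intervals, all at 95% (Python 3.11.15, scipy 1.17.1). Total counts per cell are given with the results. No test was made, since each papilla had 1 library, and ratios were checked on simulated counts. Members and lists were chosen with earlier results of these data known. Genes named beside the cues were, in each of 4 lists, up to 6 with at least 50 CPM in either library, and, for likeness, the 3 with the highest mean rho among genes on in at least 25% of cells of each library. Ntrk2, Nrp1, Nrp2, Plxna3 and Plxna4 were added after their values were seen. Gene positions are from GENCODE M21 on mm10 and promoter windows from RefSeq. The alternatives tried were further readings of the filter, further on levels, thinning to 71770 counts per cell, mean CPM per cell, other denominators and pseudocounts, and leaving out the top cell or the adjoining CV barcodes. The last was chosen after seeing the data.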

Additional observations from a re-analysis of the deposited data

Results flagged for a closer look

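In barcodes that the Gnat3 limit left out, 3 cues stood above their levels in the kept cells of the same library. Efna1 reached 623 CPM, or 191 counts, in a left-out FP barcode with Krt13, a keratin of lingual keratinocytes, at 62489 CPM, against at most 52.0 CPM in kept FP cells. A second left-out FP barcode held Efna1 at 331 CPM and Ephb3 at 296 CPM, with Krt14, a keratin of basal cells, at 27279 CPM. Efnb1 reached 116 CPM in a left-out FP barcode with Krt13 at 28037 CPM, against at most 68.7 CPM in kept FP cells. Sema7a reached 670 CPM, or 2741 counts, in a left-out CV barcode, against at most 430.3 CPM in kept CV cells. That CV barcode had 4088415 counts, with Tas1r2 at 2211 CPM, Tas1r3 at 632 CPM, Tas1r1 at 168 CPM and Gnat3 at 14.9 CPM, so the sweet receptor genes were high where Gnat3 was low. Each of these values is from 1 barcode.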

How the results depend on the processing

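No paired analysis was possible because each papilla had 1 library, and for the same reason no replicate could be left out. Sema3a turned round with the mean of CPM per cell, to a log2 ratio of FP over CV of 0.26, and was -0.06 when cells were thinned to equal totals, against -1.54 in pooled counts. With the mean per cell, 1 cue was at least 2-fold higher in CV, Slit2, in place of 2. It was 3 thinned (Slit2, Ephb2 and Efnb1) and 3 at a pseudocount of 1 CPM (Sema3a, Slit2 and Efnb1), where Efna1 also joined Sema7a and Ephb3 in FP. Without the Gnat3 limit the FP cues were Ephb3 and Efna1, not Sema7a. Sema3a in FP differed by 50 points between cells with and without a Tas2r when on meant 1 count (10 of 20 against 0 of 1 cells), and by -2.50 points at 3 counts. Without the Gnat3 limit, a cue was on in 39.3% of CV barcodes (22 of 56). Bdnf changed sign in 2 of 10 settings, 0.72 by the mean per cell and 0.37 thinned. Sema7a, Slit2 and Ephb3 kept their sign in 10 of 10. At a pseudocount of 1 CPM, 5460 genes in place of 4151 were at least 2-fold apart. Cell numbers and depth set the limits: with on at 50 CPM, the shares by receptor rest on 2 to 28 cells a side. In addition, 7 kept CV cells had under 100000 counts, where 50 CPM takes under 5 counts. The cause of these shifts was not tested.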
